A study of Homo sapiens with 8 samples.

Results

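The genes described here are 10 members of the basic leucine zipper (bZIP) class of transcription factors: the FOS family (FOS, FOSB, FOSL1, FOSL2), the JUN family (JUN, JUNB, JUND), ATF3 and the small MAF genes MAFF and MAFK. They were selected by symbol, with earlier results of these libraries known, so their fold changes and the counts of members that passed a test are given as a description. Which values led to the choice is not recorded. All 10 are among the 26364 genes of the count file and among the 14201 genes that passed the filter on low counts.

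RNA was sequenced from LN229 cells, an established human glioblastoma line, carrying a plasmid for Survivin fused to eGFP. Clone Surv-GFP (D6) carries pcDNA3.1-survivin-eGFP with a functional nuclear export signal (NES), and clone SurvNESmut-GFP (L2) carries the form with a mutated NES, which is kept in the nucleus. Each clone was either untreated or exposed to 50 µM temozolomide (TMZ), a DNA-methylating drug, for 48 h, and each of the 4 groups has 2 libraries with the letters a and b. Both clones grew in DMEM with serum and G418, the drug that selects for the plasmid. TMZ was dissolved in DMSO, and whether untreated cells received DMSO is not stated in the labels. Each genotype is 1 stable clone, so the NES mutation and any other difference between the clones cannot be told apart. The study describes biological replicates with technical duplicates for its clones, but the labels do not say which of these a and b are. The spread between letters, on which errors and p-values rest, may therefore be technical. Standard errors, intervals and p-values come from 1 model of all 8 libraries that also shares estimates of spread across genes. For genes whose letters lay far apart, such as FOS, the standard errors can be smaller than these letters alone would give.

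FOS and JUN proteins pair through their leucine zippers to form the transcription factor AP-1, which binds the element TGACTCA and links growth factor and stress kinases to gene expression. FOS, FOSB, JUN and JUNB are immediate early genes whose short-lived transcripts respond within minutes to serum, handling and stress, whereas FOSL1 and FOSL2 are known for later and longer expression. ATF3 is a stress-induced bZIP factor downstream of p53 and of ATF4 in the integrated stress response. MAFF and MAFK lack a transactivation domain and act as partners of NRF2 and related CNC factors, or of BACH proteins, on antioxidant genes.

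The bases before the start sites of FOS, FOSB and JUNB are shown because these genes varied most between letters, together with those of MAFF, whose response to TMZ differed between the clones. RefSeq promoters of GRCh38.p14 were matched for 8 of the 10 genes, with 10 entries in all, and there was no entry for FOSL1 and MAFK. The 150 bases that end just before the start site are given 5′ to 3′, on the plus strand of each. The capitals mark TGACG (the core of the cAMP response element, CRE), its full palindrome TGACGTCA, which contains TGACG on both strands, and TATAAA (the TATA box).
FOS, chr14:75278678-75278827: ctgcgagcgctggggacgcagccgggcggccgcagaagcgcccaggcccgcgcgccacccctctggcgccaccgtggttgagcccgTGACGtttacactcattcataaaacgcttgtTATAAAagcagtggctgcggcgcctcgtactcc
FOSB, chr19:45467846-45467995: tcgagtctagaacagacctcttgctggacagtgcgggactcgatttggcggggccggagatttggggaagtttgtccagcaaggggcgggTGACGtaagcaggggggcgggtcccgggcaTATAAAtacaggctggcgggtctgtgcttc
JUNB, chr19:12791336-12791485: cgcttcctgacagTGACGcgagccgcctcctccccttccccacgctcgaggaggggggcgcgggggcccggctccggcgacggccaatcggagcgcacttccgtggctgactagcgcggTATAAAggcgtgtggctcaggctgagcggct
MAFF, chr22:38201844-38201993: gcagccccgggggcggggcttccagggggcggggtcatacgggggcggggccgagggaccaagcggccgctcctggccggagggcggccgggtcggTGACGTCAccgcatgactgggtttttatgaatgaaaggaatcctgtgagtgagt

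FOS, FOSB and JUNB each held 1 TATAAA, beginning 33, 30 and 31 bases before the start, and 1 TGACG, beginning 64, 60 and 137 bases before it. Both strands were searched over the 250 bases before each start. TGACG was found in 7 of the 8 matched genes, all but ATF3, against 21.2% of 35116 promoters in the table. A gene was counted if any of its entries held the motif, whereas the percentages are over single promoters, so the units differ. TATAAA was found in 4 genes (10.7% of promoters), the fourth being the second ATF3 entry at 230 bases. The full CRE TGACGTCA, held by 1.65% of promoters, was found in MAFF at 54 and in JUND at 200 bases before the start. Of the MAFF entries, only the first, which is the one shown, held it or TGACG. The AP-1 element TGACTCA was in none of these windows (4.2% of promoters). A match describes these letters only.

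The 8 libraries held between 15826923 and 18861603 counts on genes, and the 10 genes between 164 and 10116 counts each. Levels are given as CPM, counts scaled by library size and TMM factor, and log2 CPM of the letters of a group correlated with r from 0.9939 to 0.9959 over tested genes, above the highest value between groups, 0.9858. BIRC5, which encodes Survivin, was at 1152 and 1113 CPM in untreated Surv-GFP, 1938 and 2029 CPM with TMZ, 407 and 414 CPM in untreated SurvNESmut-GFP and 262 and 253 CPM with TMZ. These counts do not tell the plasmid's copy from the cell's own gene. The p53 target CDKN1A rose after TMZ in both clones, by 3.52 ± 0.07 (SE) and 1.96 ± 0.07 on the log2 scale. Of the glioma markers, VIM (vimentin), NES (nestin) and CD44 stood at 524 CPM or more in every library, whereas the astrocyte markers GFAP and AQP4 did not exceed 0.921 and 0.163 CPM. For the other markers, untreated means in Surv-GFP and SurvNESmut-GFP were 777 and 40.6 CPM for S100B and 175 and 15.1 for FABP7. They were 90.7 and 34.4 CPM for SOX2, 34.0 and 6.94 for OLIG2, 13.3 and 8.16 for SLC1A3 and 49.8 and 54.9 for EGFR. VIM alone, at 2348 to 3783 CPM, weighs most in the sum. Summed over 11 glioma markers, the level was 6146 to 6235 CPM in untreated Surv-GFP, 3913 to 4010 CPM with TMZ, 4686 to 4881 CPM in untreated SurvNESmut-GFP and 4169 to 4305 CPM with TMZ. Summed over 11 markers of other cell types it was 13.5 to 14.3, 19.3 to 20.9, 25.1 to 25.4 and 27.6 to 31.0 CPM in the same order, mainly CD68 (11.9 to 21.4 CPM). SYP and MBP reached at most 3.33 and 7.10 CPM. PTPRC, CD14, AIF1, PECAM1, CDH5, EPCAM, CDH1 and RBFOX3 stayed under 0.4 CPM. The part of these shifts in the results was not tested, and in bulk RNA fewer expressing cells and less RNA per cell cannot be told apart.

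In untreated Surv-GFP cells FOS was the member with the highest mean level per exon length, and its family looked different in every other group. To compare genes, CPM was divided by exon length (GENCODE v29 basic annotation; the sources used here do not name the annotation of the counting). On this scale the mean of FOS was 134.6 ± 56.2 CPM per kb (SD, n = 2), which did not differ beyond the spread between letters from JUNB at 127.5 ± 40.4 or JUN at 100.04 ± 24.0. Within each library FOS was above JUN, at 174.3 against 117.0 in a and 94.8 against 83.1 in b. JUNB, at 156.1 and 98.9, was below FOS in a and above it in b. FOSL1 ranked first of the 10 in SurvNESmut-GFP, at 184.6 ± 5.16 CPM per kb untreated and 203 ± 7.14 with TMZ, while JUN (152.1 ± 16.9) and FOSL1 (147.3 ± 4.46) did not differ beyond their spread in Surv-GFP with TMZ. On this scale FOS made up 61.6% and 74.9% of the summed FOS family in the untreated Surv-GFP libraries. With TMZ its share was 13.4% and 23.3%, in untreated SurvNESmut-GFP 11.6% and 14.5%, and in SurvNESmut-GFP with TMZ 7.24% and 13.3%. FOSL1, which encodes FRA-1, made up 22.2% and 35.1% in untreated Surv-GFP, and between 71.9% and 82.5% in the other 6 libraries. The shares of both genes therefore did not overlap between untreated Surv-GFP and the other groups, and did overlap among most of those. FOSB and FOSL2 made up at most 2.61% and 7.93% in any library.

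**Figure D1:**
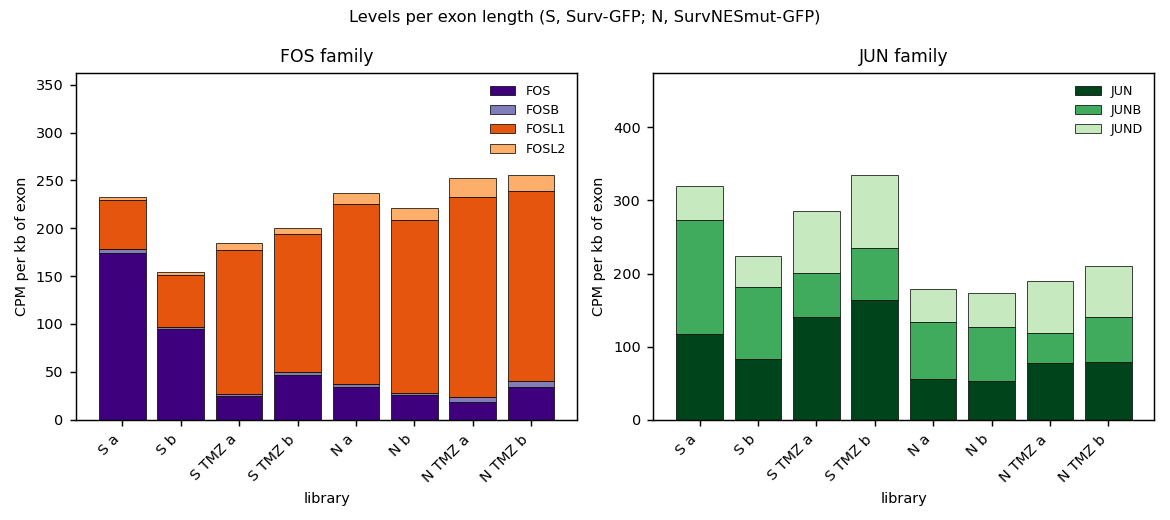
CPM per kb of exon of the FOS family (left) and the JUN family (right) in each of the 8 libraries, stacked by gene. FOS fills most of the bar in both untreated Surv-GFP libraries, and FOSL1 fills 71.9% or more of the other 6.

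The FOS transcript stood at 512 and 279 CPM in the untreated Surv-GFP libraries a and b. With TMZ it was at 72.6 and 137 CPM, in untreated SurvNESmut-GFP at 101 and 75.2 CPM and in SurvNESmut-GFP with TMZ at 53.7 and 99.9 CPM. Both untreated Surv-GFP libraries were above all others, and the remaining 3 groups overlapped. FOS fell with TMZ in Surv-GFP by 1.92 ± 0.28 on the log2 scale (SE, n = 2 libraries a group), which is 3.79-fold. In SurvNESmut-GFP the log2 fold change was -0.20, with a 95% interval from -0.84 to 0.44. Because the letters lay so far apart, the size of the fall in Surv-GFP ranged from 1.41 to 2.48 when 1 library was left out. The value in SurvNESmut-GFP became 0.02 without the untreated replicate a, 0.18 without the TMZ replicate a and -0.71 without the TMZ replicate b, and passed the test only in the last case.

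FOSB, a close relative of FOS with low counts here, rose in SurvNESmut-GFP. Its levels were 22.7 and 12.1 CPM in untreated Surv-GFP and 10.0 and 18.4 CPM with TMZ. In SurvNESmut-GFP they were 14.8 and 11.8 CPM untreated and 33.0 and 37.0 CPM with TMZ. Only the SurvNESmut-GFP libraries with TMZ lay outside the range of the others. The rise in SurvNESmut-GFP was 1.39 ± 0.23 (log2), 2.63-fold, and it did not pass the test under a robust prior. In Surv-GFP the log2 fold change of -0.31 (95% interval -0.83 to 0.21) had no stable sign, since it was 0.22 without the untreated replicate a and 0.08 without the TMZ replicate a. Without replicate b of either Surv-GFP group it was -0.69 (untreated) or -0.83 (TMZ) and passed the test.

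FOSL1 varied little between letters, and its rise was larger in Surv-GFP. It was at 94.9 and 99.3 CPM in untreated Surv-GFP and at 277 and 265 CPM with TMZ. In SurvNESmut-GFP it was at 346 and 333 CPM untreated and at 383 and 364 CPM with TMZ. The groups did not overlap and stood in that order. The rise in Surv-GFP was 1.48 ± 0.05 (log2), 2.79-fold, and the treated level was still below that of untreated SurvNESmut-GFP. In SurvNESmut-GFP the rise was 0.14 ± 0.05, and this call ended under DESeq2, with the replicate letter as a block (0.14), with only the 4 libraries compared, and without any 1 of 6 libraries, where it ranged from 0.10 to 0.16.

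FOSL2, which encodes FRA-2, rose with TMZ in both clones from different starting levels. Its levels were 19.1 and 20.8 CPM in untreated Surv-GFP, 49.5 and 43.2 CPM with TMZ, 80.6 and 82.5 CPM in untreated SurvNESmut-GFP and 136 and 114 CPM with TMZ. No group overlapped another, and the order was the same as for FOSL1. The rise was 1.22 ± 0.10 (log2) in Surv-GFP and 0.62 ± 0.07 in SurvNESmut-GFP, 2.33-fold and 1.53-fold.

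JUN, the main partner of FOS proteins in AP-1, was higher in Surv-GFP than in SurvNESmut-GFP and rose with TMZ in both. It was at 414 and 294 CPM in untreated Surv-GFP and 496 and 581 CPM with TMZ. In SurvNESmut-GFP it was at 196 and 187 CPM untreated and 276 and 282 CPM with TMZ. The 4 groups did not overlap. The rise was 0.60 ± 0.11 (log2) in Surv-GFP and 0.54 ± 0.11 in SurvNESmut-GFP. The call in SurvNESmut-GFP ended under a robust prior. The size in Surv-GFP depended on the letters, at 0.87 when untreated replicate a was left out and 0.38 when untreated replicate b was.

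JUNB, often described as a weaker activator than JUN, was the JUN family member with lower levels after TMZ. It stood at 284 and 180 CPM in untreated Surv-GFP and 110 and 130 CPM with TMZ, so these groups did not overlap. In SurvNESmut-GFP it stood at 143 and 134 CPM untreated and 75.1 and 111 CPM with TMZ, and only the TMZ groups overlapped. JUNB fell by 0.95 ± 0.16 (log2) in Surv-GFP, a call that ended under a robust prior. The value was -0.58 without the untreated Surv-GFP replicate a and -1.24 without its replicate b. In SurvNESmut-GFP JUNB fell by 0.58 ± 0.17. That call ended under DESeq2 and a robust prior, and without untreated replicate a (-0.53), untreated replicate b (-0.63) or TMZ replicate a (-0.32). Exons of JUNB overlap those of HOOK2 on the opposite strand, and the sources used here do not say whether counting used the strand.

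JUND, which many resting cells express, rose in both clones. Its levels were 86.4 and 79.0 CPM in untreated Surv-GFP, 158 and 184 CPM with TMZ, 84.4 and 88.6 CPM in untreated SurvNESmut-GFP and 131 and 130 CPM with TMZ. The untreated groups overlapped and lay below both TMZ groups. The rise was 1.05 ± 0.07 (log2) in Surv-GFP and 0.59 ± 0.07 in SurvNESmut-GFP. Per exon length, JUNB made up 44.1% to 48.9% of the JUN family in untreated Surv-GFP and 42.3% to 43.9% in untreated SurvNESmut-GFP. With TMZ these shares were 21.3% to 21.4% and 21.8% to 29.03%, with JUN at 49.0% to 49.1% and 37.8% to 41.1%. JUN therefore held the largest share of its family in each TMZ library and JUNB in each untreated one.

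ATF3 showed the largest fold change among the 10 genes in both clones. It was at 11.2 and 9.05 CPM in untreated Surv-GFP and 116 and 138 CPM with TMZ. In SurvNESmut-GFP it was at 17.3 and 16.4 CPM untreated and 86.7 and 89.1 CPM with TMZ. No group overlapped another. The rise was 3.64 ± 0.10 (log2), 12.5-fold, in Surv-GFP and 2.38 ± 0.09, 5.21-fold, in SurvNESmut-GFP. Across the 14201 tested genes these values were at the 99.5th and 99.6th percentile of the log2 fold changes of their comparison.

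MAFF and MAFK were low in untreated Surv-GFP only. MAFF stood at 41.4 and 40.7 CPM there, and between 101 and 111 CPM in each of the other 6 libraries. Its other 3 groups overlapped. MAFK stood at 19.1 and 17.99 CPM in untreated Surv-GFP, 76.5 and 72.8 CPM with TMZ, 104 and 107 CPM in untreated SurvNESmut-GFP and 95.7 and 100.2 CPM with TMZ. These groups did not overlap. In Surv-GFP the rise was 1.37 ± 0.06 (log2) for MAFF and 2.01 ± 0.06 for MAFK, 2.59-fold and 4.02-fold. In SurvNESmut-GFP the log2 fold changes were 0.02 (95% interval -0.10 to 0.13) and -0.11 (-0.22 to 0.00), and neither passed the test. The MAFF value was -0.05 without the untreated replicate b of SurvNESmut-GFP. MAFG, the third small MAF gene and no member of the set, rose by 1.10 ± 0.05 in Surv-GFP (edgeR adjusted p = 2.59e-11), with -0.01 ± 0.05 in SurvNESmut-GFP (adjusted p = 0.891). Exons of MAFK overlap those of TMEM184A on the opposite strand.

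**Figure D2:**
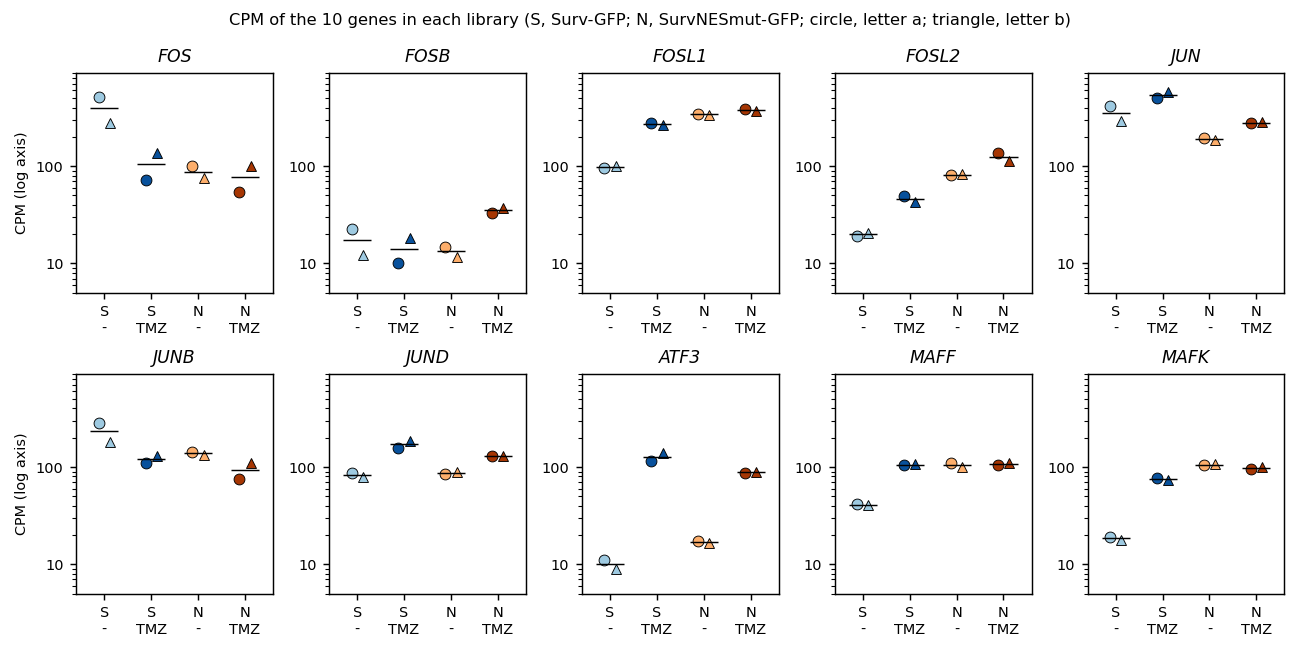
CPM (log axis) of the 10 genes in each library of untreated and TMZ-treated Surv-GFP (S) and SurvNESmut-GFP (N); circles are letter a, triangles letter b and lines group means. FOSL1, FOSL2, ATF3, MAFF and MAFK are lowest in both untreated Surv-GFP libraries, and the letters of FOS lie far apart.

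With TMZ in Surv-GFP, 7 of the 10 genes passed as higher and 2 as lower, with the threshold on the adjusted p at 0.05 (edgeR's quasi-likelihood F test, Benjamini-Hochberg adjustment over all tested genes). Of all tested genes, 30.1% were called higher and 28.9% lower in this comparison. In SurvNESmut-GFP 6 of the 10 were higher and 1 lower, with 18.6% and 19.1% of all tested genes. The median log2 fold change of the 10 genes was 1.13 in the Surv-GFP and 0.34 in the SurvNESmut-GFP clone, and that of all tested genes lay within 0.0035 of 0 in both. Since the genes were chosen with such results known, nothing is read from these counts. Under a robust prior only FOS was called lower in Surv-GFP, and 4 members were called higher in SurvNESmut-GFP.

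The question whether TMZ acted differently in the clones was put as a difference of the log2 fold changes, SurvNESmut-GFP minus Surv-GFP. The difference was negative for 6 members, each with a smaller rise or no called change in SurvNESmut-GFP, beside 20.2% of all tested genes. MAFK had the widest gap, at -2.12 ± 0.08, followed by MAFF (-1.35 ± 0.08), FOSL1 (-1.34 ± 0.07), ATF3 (-1.26 ± 0.15), FOSL2 (-0.60 ± 0.12) and JUND (-0.45 ± 0.10). The difference was positive for 2 members, FOS (1.72 ± 0.41) and FOSB (1.70 ± 0.34), beside 16.6% of all tested genes. As given above, FOS fell in Surv-GFP, with -0.20 in SurvNESmut-GFP, and FOSB rose in SurvNESmut-GFP. The FOS call ended under DESeq2 and a robust prior, and the FOSB call under a robust prior. For JUN the difference was -0.06 (95% interval -0.38 to 0.26) and for JUNB 0.37 (-0.13 to 0.88). JUN passed the test at -0.33 without the untreated Surv-GFP replicate a, and turned to 0.16 and 0.09 without the untreated and the TMZ replicate b of Surv-GFP. JUNB passed at 0.39 with no filter on low counts, at 0.66 without the untreated Surv-GFP replicate b and at 0.63 without the SurvNESmut-GFP TMZ replicate a.

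**Figure D3:**
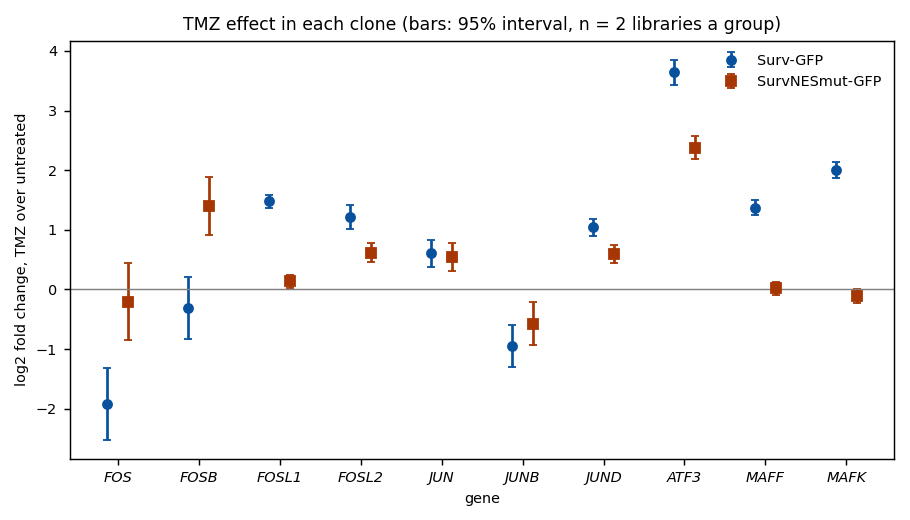
Log2 fold change of TMZ over untreated for each gene in Surv-GFP (circles) and SurvNESmut-GFP (squares). The 95% intervals come from the model of all 8 libraries, 2 a group. MAFF, MAFK and FOSL1 lie at 1.37 to 2.01 in Surv-GFP and between -0.11 and 0.14 in SurvNESmut-GFP.

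Without TMZ the clones already differed in most of these genes. In SurvNESmut-GFP 5 were higher, MAFK by 2.51 ± 0.06 (log2), FOSL2 by 2.03 ± 0.09, FOSL1 by 1.81 ± 0.05, MAFF by 1.37 ± 0.06 and ATF3 by 0.74 ± 0.13, beside 34.7% of all tested genes. Lower were 3, FOS by -2.17 ± 0.29, JUN by -0.89 ± 0.11 and JUNB by -0.75 ± 0.16, beside 29.4%. The JUNB call ended under a robust prior, and its value was -0.38 without the untreated Surv-GFP replicate a and -1.03 without its replicate b. FOSB was at -0.39 (95% interval -0.91 to 0.14) and JUND at 0.06 (-0.08 to 0.21). The FOSB value was 0.14 without the untreated Surv-GFP replicate a, and it passed the test at -0.77 without replicate b, at -0.42 with no filter and at -0.42 with only the 4 libraries compared.

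With TMZ the clone difference was smaller in size for 7 of the 10. In SurvNESmut-GFP 4 were higher, namely FOSL2 by 1.43 ± 0.08, FOSB by 1.31 ± 0.23, FOSL1 by 0.46 ± 0.05 and MAFK by 0.39 ± 0.05, beside 34.5% of all tested genes. Lower were 3, JUN by -0.95 ± 0.11, ATF3 by -0.53 ± 0.07 and JUND by -0.39 ± 0.07, again beside 34.7%. ATF3 was thus higher in SurvNESmut-GFP without TMZ and lower with it. MAFF was at 0.02 (-0.10 to 0.13), FOS at -0.45 (-1.08 to 0.19) and JUNB at -0.37 (-0.74 to -0.0047). With no filter on low counts, FOS (-0.46) and JUNB (-0.39) passed as well, which made 5 lower. FOS also passed without the Surv-GFP TMZ replicate a (-0.88) or the SurvNESmut-GFP TMZ replicate b (-0.99), and was at 0.07 without the Surv-GFP TMZ replicate b. JUNB passed without either untreated Surv-GFP library (-0.37 each), without the Surv-GFP TMZ replicate a (-0.52), without the SurvNESmut-GFP TMZ replicate b (-0.71) and with only the 4 libraries compared (-0.38). These comparisons share libraries with the TMZ effects above.

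Several immediate early members differed more between letters than most genes did, though not in every group. In untreated Surv-GFP, FOS, FOSB, JUNB and JUN were higher in a than in b by 0.88, 0.90, 0.66 and 0.49 on the log2 scale. These gaps were wider than those of 98.2%, 98.4%, 96.7% and 94.1% of tested genes. In Surv-GFP with TMZ the direction was opposite, with FOS at -0.92 and FOSB at -0.87. In SurvNESmut-GFP with TMZ FOS was at -0.90 and JUNB at -0.56, again higher in b. JUN, at 0.07 untreated and -0.03 with TMZ, differed less in SurvNESmut-GFP than the median size of the gap over all tested genes, 0.078 and 0.109. FOSL1, MAFF and MAFK stayed within 0.142 in every group. Among 21 other immediate early genes, such as EGR1 and IER2, 19 were higher in a in untreated Surv-GFP and 19 higher in b with TMZ. In SurvNESmut-GFP 16 were higher in a untreated and 17 higher in b with TMZ. Of all 14201 tested genes, 6953 were higher in a and 7176 in b in untreated Surv-GFP, and 7112 and 7010 with TMZ. In SurvNESmut-GFP these numbers were 6973 and 7162 untreated and 6796 and 7335 with TMZ. In untreated Surv-GFP the median over all tested genes was -0.0013 with its sign and 0.077 in size. The part of the shift between letters in the fold changes of FOS, FOSB, JUN and JUNB was not tested.

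**Figure D4:**
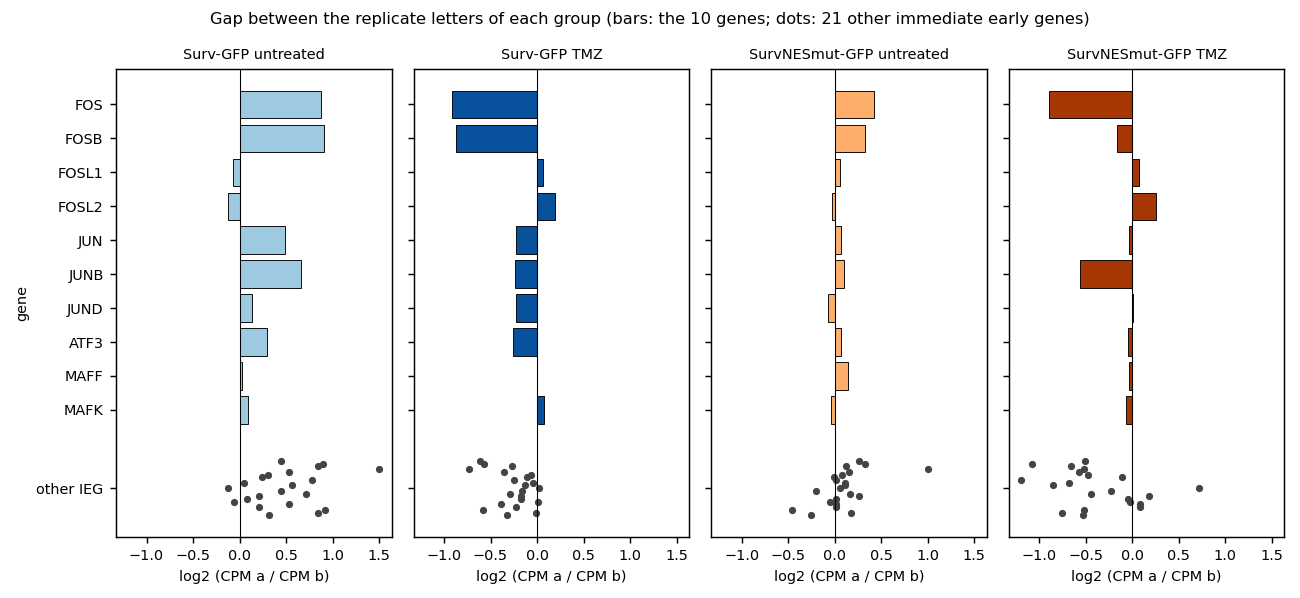
Log2 ratio of CPM in library a over library b in each group, for the 10 genes (bars) and 21 other immediate early genes (IEG, dots). FOS is at 0.88 and 0.42 in the untreated groups and at -0.92 and -0.90 in the TMZ groups.

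Over the 8 libraries the members fell into patterns, which are given as a description because the 4 group means shape them. Log2 CPM of FOSL1, MAFF and MAFK correlated with Pearson r of 0.98 to 0.99 with each other, and FOSL1 and FOSL2 with 0.95. FOS went with JUNB (0.93) and against FOSL1 (-0.93). ATF3 went with JUND (0.97). Among all other tested genes, the closest patterns were those of H6PD (0.982) and CRIP2 (0.973) for FOS, HSF2BP (0.973) and OSR1 (0.959) for FOSB, HMGA2 (0.998) and NRP1 (0.997) for FOSL1 and DIEXF (0.998) and PDLIM1 (0.997) for FOSL2. For JUN they were LINC00662 (0.988) and AARS2 (0.988), for JUNB RPL3 (0.988) and TDRD3 (0.978) and for JUND PRDX5 (0.993) and JHDM1D-AS1 (0.993). For ATF3 they were ZNF761 (0.999) and TNFSF9 (0.999), for MAFF SLC3A2 (0.993) and UBE2J1 (0.991) and for MAFK LOC101927797 (0.998) and ADAM17 (0.996).

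Of the other bZIP proteins that pair with AP-1 or MAF proteins, 15 of 18 were tested, and 6 rose and 2 fell with TMZ in Surv-GFP. MAFG (1.10), CREB5 (1.77) and the CNC factor NFE2L1 (0.67) rose, and NFE2L3 (-0.81) and ATF2 (-0.17) fell, all as log2 fold changes with the adjusted p of the same fit. Over the TMZ effects of the genes named from these lists, standard errors ran from 0.044 to 0.254 and adjusted p values from edgeR were 0.0453 or less. The ATF2 call ended without replicate b of either Surv-GFP group (-0.14 untreated, -0.18 TMZ). In SurvNESmut-GFP 2 rose, the AP-1 repressor JDP2 (1.63) and NFE2L1 (0.25), and 4 fell, among them the NRF2 antagonist BACH1 (-0.41), ATF2 (-0.38) and NFE2L2 (-0.30), which encodes NRF2. JDP2 also rose in Surv-GFP (1.12), and its difference between the TMZ effects (0.52) did not pass the test. Its means were low, at 4.10 CPM untreated and 8.88 CPM with TMZ in Surv-GFP, and 1.34 and 4.18 CPM in SurvNESmut-GFP. The medians of the list were 0.28 and -0.01. Of its tested genes 40% were higher and 13.3% lower in Surv-GFP, and 13.3% and 26.7% in SurvNESmut-GFP. As given above, the shares of all tested genes were 30.1% and 28.9% in Surv-GFP and 18.6% and 19.1% in SurvNESmut-GFP, and nothing particular to this or the following lists is read from their shares.

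The kinases and factors upstream of FOS and JUN were all tested (35 of 35). In Surv-GFP 13 rose and 9 fell, with MAP2K3 (0.93), BRAF (0.78) and RPS6KA2 (0.97) rising and MAP2K6 (-2.90), MAP3K1 (-0.78) and MAPK14 (-0.31) falling. In SurvNESmut-GFP 3 rose and 9 fell. RPS6KA2 (1.36), MAPK11 (0.39) and HRAS (0.19) rose, and MEF2C (-1.76), RPS6KA3 (-0.28) and MEF2A (-0.27) fell. The HRAS call ended under DESeq2 and with only the 4 libraries compared (0.19 in both), and without replicate a of the untreated (0.13) or TMZ group (0.11), and that of MEF2A without the untreated replicate a (-0.23). The medians were 0.05 and -0.04. Of the tested genes of this list, 37.1% were higher and 25.7% lower in Surv-GFP, and 8.57% and 25.7% in SurvNESmut-GFP.

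Of the other immediate early genes 21 were tested; 10 rose and 3 fell in Surv-GFP, and 6 rose and 6 fell in SurvNESmut-GFP. IER5 (2.01), KLF4 (2.70) and the orphan receptor NR4A3 (3.85) rose in Surv-GFP, and CTGF (-0.35), IER2 (-0.60) and EGR1 (-0.42) fell. NR4A3 was low, at means of 0.85 CPM in untreated Surv-GFP and 12.3 with TMZ, and of 7.98 and 2.09 CPM in SurvNESmut-GFP. The IER2 and EGR1 calls ended without replicate a of the untreated group (-0.30 and -0.17) or of the TMZ group (-0.43 and -0.14), and under DESeq2 and a robust prior. In SurvNESmut-GFP IER5 (1.01), BTG2 (2.25) and KLF4 (1.34) rose, and NR4A3 (-1.95), NR4A2 (-1.12) and NR4A1 (-1.30) fell, the last not under a robust prior. BTG2 rose by 2.21 in Surv-GFP too, and its difference between the TMZ effects (0.04) did not pass the test. NR4A2 (1.42) and NR4A1 (0.64) were called higher in Surv-GFP, where the untreated letters of NR4A1 lay 0.78 apart. The medians were 0.13 and -0.12. Of the tested genes of this list, 47.6% were higher and 14.3% lower in Surv-GFP, and 28.6% and 28.6% in SurvNESmut-GFP.

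Among 14 genes of p53 signalling and the integrated stress response that act on or beside ATF3, 12 rose in each clone. TRIB3 (4.19), PPP1R15A (3.52) and GADD45A (3.82) had the smallest p in Surv-GFP, and CHAC1 (3.57), SESN2 (2.03) and TRIB3 (1.87) in SurvNESmut-GFP. ATF5 (-0.41) fell in SurvNESmut-GFP, where it was the only one to do so. The medians were 2.64 and 1.42. Of the tested genes of this list, 85.7% were higher in Surv-GFP, and 85.7% were higher and 7.14% lower in SurvNESmut-GFP. The difference between the TMZ effects passed the test for 12 of the 14, each with the smaller effect in SurvNESmut-GFP. Of all tested genes, 20.2% had a called negative difference.

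Of 24 symbols of genes widely described as AP-1 targets, 18 were tested, and 11 rose and 2 fell in Surv-GFP. The cytokines LIF (3.93) and CXCL8 (4.77) and the growth factor VEGFA (3.48) rose, and SPP1 (-0.37) and DCN (-1.10) fell. In SurvNESmut-GFP 9 rose, among them VEGFA (1.69) and CXCL8 (0.68), and 3 fell, namely PLAUR (-0.41), FST (-0.83) and CCL2 (-0.33). The FST and CCL2 calls ended under DESeq2 and a robust prior, and that of CCL2 without either untreated library (-0.31 without a, -0.36 without b) or the TMZ replicate a (-0.12). The matrix metalloproteinase genes MMP1, MMP3, MMP9, MMP10 and MMP13 did not pass the filter on low counts. The medians were 0.66 and 0.20. Of the tested genes of this list, 61.1% were higher and 11.1% lower in Surv-GFP, and 50% and 16.7% in SurvNESmut-GFP.

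Of 12 antioxidant genes bound by NRF2 with a small MAF protein, 5 rose and 4 fell in Surv-GFP, where MAFF, MAFG and MAFK rose. The cystine transporter SLC7A11 (1.19), OSGIN1 (1.36) and SRXN1 (0.55) rose, and NQO1 (-0.75), GCLC (-0.29) and the ferritin gene FTL (-0.18) fell. The FTL call ended without the untreated replicate a (-0.13). In SurvNESmut-GFP 7 rose and 5 did not pass, with SLC7A11 (1.004) and FTH1 (0.47) among those that rose. The medians were 0.10 and 0.22. Of the tested genes of this list, 41.7% were higher and 33.3% lower in Surv-GFP, and 58.3% were higher in SurvNESmut-GFP.

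**Figure D5:**
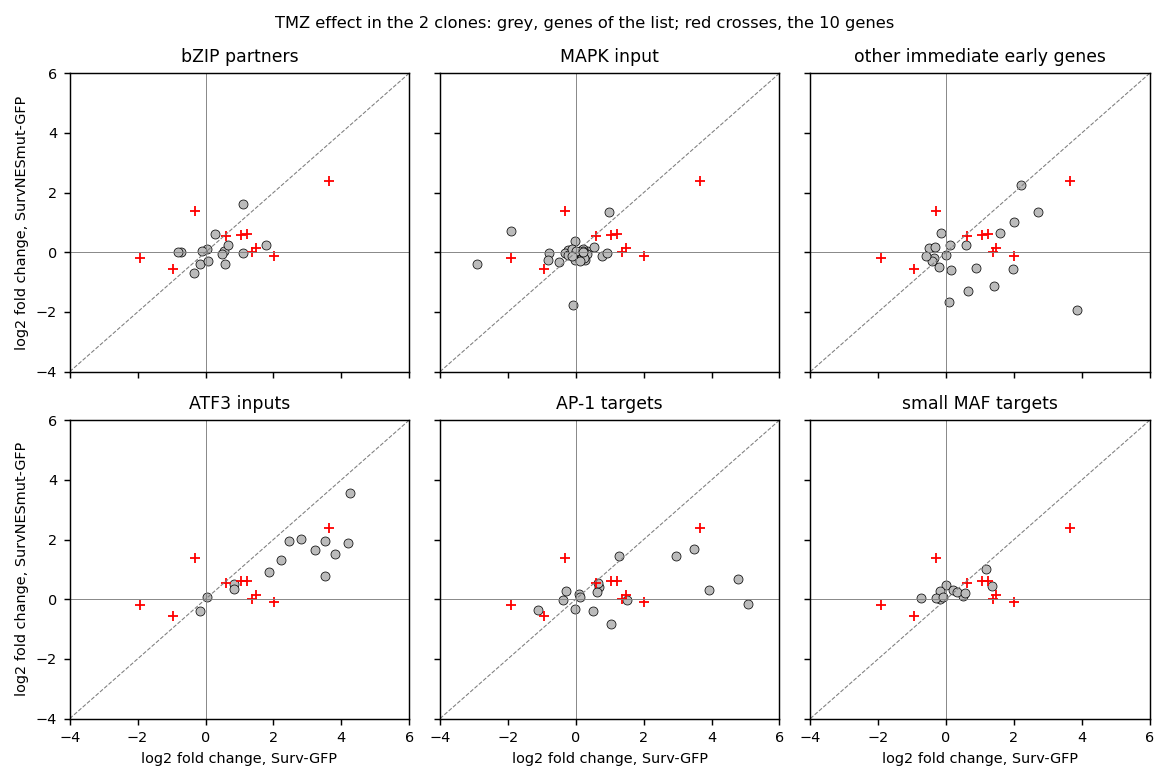
Log2 fold change with TMZ in Surv-GFP (horizontal) against SurvNESmut-GFP (vertical) for 6 gene lists (grey) and the 10 members (red crosses); the dashed line marks equal effects. Most genes of the ATF3 list lie right of the line, at a median of 2.64 and 1.42.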

How the data were processed

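The authors deposited a table of read counts per gene symbol for 8 libraries, with no normalization; groups were taken from the sample labels. The submitters' processing notes name STAR 2.5.0b, Cufflinks 2.2.1 and edgeR. Genome build, annotation, counting program and strandedness: not given in the sources used here. Both rows that name no gene, with 11.2% to 14.3% (no feature) and 1.19% to 1.28% (ambiguous) of the counts, were left out. The authors' comparison tables (log2 fold changes, log2 CPM, F, p and FDR) were not used.

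The fit used edgeR 4.0.16 and limma 3.58.1 under R 4.3.3, with TMM factors (0.978 to 1.02), edgeR's low count filter by group, 1 model of 4 group means over all 8 libraries, the legacy quasi-likelihood F test and Benjamini-Hochberg adjustment over 14201 genes, with a threshold of 0.05. CPM use the TMM-scaled library sizes. The gap between letters used a pseudocount of 0.1 CPM. The scripts were tested on simulated data.

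The members and lists were chosen with earlier results of these data known. The text names all members, for each list and each of the TMZ effects and their difference up to 3 called genes a direction with the smallest p, the 2 genes most like each member, and BIRC5 and CDKN1A. A few genes that this rule selects are left out and not reported here. The alternatives were DESeq2 size factors, library size alone, no filter, 1 CPM in 2 libraries, DESeq2 1.42.0, the edgeR 4 method, a robust prior, the replicate block, the 4 libraries compared alone, and each library left out.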

Additional observations from a re-analysis of the deposited data

Results flagged for a closer look

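The test of the difference between the TMZ effects (SurvNESmut-GFP minus Surv-GFP, log2 scale, edgeR) passed for 8 members, 2 with a positive and 6 with a negative difference, beside 16.6% and 20.2% of all tested genes. It was 1.72 for FOS, 1.70 for FOSB, -1.34 for FOSL1, -0.60 for FOSL2, -0.45 for JUND, -1.26 for ATF3, -1.35 for MAFF and -2.12 for MAFK. The FOS call ended under DESeq2 and a robust prior, and the FOSB call under a robust prior.

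The same test passed for the following genes of the lists. Among bZIP partners the difference was 0.81 for NFE2L3, -1.11 for MAFG, -0.97 for BACH1 and -1.52 for CREB5. For the kinases and factors upstream it was 2.51 for MAP2K6, 0.74 for MAP3K1, 0.29 for MAPK14, -0.97 for MAP2K3, -0.90 for BRAF and -1.67 for MEF2C. The MAPK14 call ended without replicate a of untreated Surv-GFP (0.25) or replicate b of untreated SurvNESmut-GFP (0.26), and the MEF2C call under a robust prior. For other immediate early genes it was 0.81 for CYR61, which did not pass under a robust prior, -5.80 for NR4A3, -2.54 for NR4A2 and -0.998 for IER5. The NR4A3 value rests on low levels, with means of 0.85 CPM in untreated Surv-GFP and 2.09 CPM in SurvNESmut-GFP with TMZ. Among genes beside ATF3 the difference was -2.72 for PPP1R15A, -2.32 for TRIB3 and -2.28 for GADD45A. AP-1 targets gave 0.34 for SPP1, 0.75 for DCN, -3.61 for LIF, -5.23 for IL11 and -4.08 for CXCL8. The DCN call ended under DESeq2 (0.77) and when any of 5 libraries was left out (0.56 to 0.78). Antioxidant genes gave 0.81 for NQO1, 0.48 for FTH1, -0.91 for OSGIN1, -0.35 for SRXN1 and -0.39 for GCLM. The GCLM call ended without replicate a of untreated Surv-GFP (-0.31), of Surv-GFP with TMZ (-0.29) or of untreated SurvNESmut-GFP (-0.36). Glioma markers gave 3.82 for SLC1A3, 0.39 for VIM and 0.96 for OLIG2.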

How the results depend on the processing

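Of the log2 fold changes of members under the alternatives, 788 kept direction and side of the threshold, 12 reversed, 21 lost and 19 gained a call; the cause was not tested. No value of a called member reversed. With 1 library left out, the TMZ effect ranged from -0.83 to 0.22 for FOSB in Surv-GFP (0.22 and 0.08 without replicate a of either group), from -0.71 to 0.18 for FOS (0.02 and 0.18) and from -0.053 to 0.090 for MAFF in SurvNESmut-GFP. The difference for JUN ranged from -0.33 to 0.16 (0.16 and 0.09), the clone difference without TMZ for FOSB from -0.77 to 0.14, and that with TMZ from -0.99 to 0.074 for FOS and from -0.037 to 0.016 for MAFF (-0.022, -0.0026 and -0.037). Members called lower with TMZ in Surv-GFP were 1 under a robust prior. In SurvNESmut-GFP members called lower were 0 under DESeq2 and a robust prior and 0 to 2 with 1 library left out. Members with a positive difference between the TMZ effects were 1 under DESeq2 and 0 under a robust prior. Members lower in SurvNESmut-GFP with TMZ were 5 with no filter and 3 to 5 with 1 library left out. Leaving out a library leaves its group with 1, assumed to vary like the others. With the replicate block, members called were 7 and 2 (higher and lower) for Surv-GFP, 5 and 1 for SurvNESmut-GFP, and FOSL1 was the member that lost its call; over all tested genes, deviations of same-letter libraries correlated with r from -0.065 to 0.082, and the letters were not taken as pairs. The immediate early genes did shift together within a treatment, as the report gives, mostly higher in a untreated and in b with TMZ. The block is a single letter term for all groups, so it could not take out a shift that changes sign with treatment. Of the list counts, 41 moved by over 1.5 times.

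In Surv-GFP, other immediate early genes that fell (3) were 6 with no filter, 1 under DESeq2, a robust prior or without replicate a of either Surv-GFP group, 7 and 5 without their replicate b (untreated, TMZ), and 5 without either SurvNESmut-GFP TMZ library. Upstream kinases and factors that fell there (9) were 5 without untreated replicate a or TMZ replicate b, and glioma markers that rose (1) were 2 without either SurvNESmut-GFP TMZ library. In SurvNESmut-GFP, other immediate early genes that fell (6) were 3 under a robust prior, AP-1 targets that fell (3) were 1 under DESeq2 and 5 without TMZ replicate b, and antioxidant genes that rose (7) were 3 under DESeq2 or without untreated replicate a. Upstream kinases and factors that fell (9) were 5 with library size alone, under DESeq2 or without either untreated library, and 4 without TMZ replicate a. Those with a positive difference between the TMZ effects (7) were 4 under DESeq2 and 3 without the untreated replicate a of either clone; for other immediate early genes this count (1) was 3 with no filter and without replicate b of either Surv-GFP group or the SurvNESmut-GFP TMZ replicate a.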

Other observations

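Among the 9 of 11 glioma markers that passed the filter on low counts, 1 rose and 7 fell with TMZ in Surv-GFP, and 3 rose and 5 fell in SurvNESmut-GFP. In Surv-GFP EGFR (0.29) rose and FABP7 (-1.99), S100B (-1.56) and VIM (-0.66) fell, as log2 fold changes. In SurvNESmut-GFP SLC1A3 (1.90), EGFR (0.72) and CD44 (0.17) rose, and S100B (-1.28), SOX2 (-0.81) and FABP7 (-1.25) fell. The EGFR call in Surv-GFP ended under a robust prior, without the untreated replicate a (0.25) and without the TMZ replicate b (0.22), and that of CD44 without the untreated replicate b of SurvNESmut-GFP (0.16). Of the markers of other cell types 3 of 11 were tested, and CD68 rose in both clones, by 0.59 ± 0.10 and 0.40 ± 0.10.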
